A study of Mus musculus with 10 samples.

Results

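The part of the study described here is the response to diethylnitrosamine and phenobarbital (DEN/PB) that wild-type (WT) mice and mice lacking the kinase MLK3 (KO) had in common. A gene was counted as shared when it met 2 conditions. The treatment term of a model with genotype as covariate had to pass the test, and in each genotype all 3 treated libraries had to lie on the same side of both water libraries. Of 15811 genes tested, 456 met both conditions, 236 of them higher and 220 lower with DEN/PB.

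All animals were male C57BL/6 mice killed at 11 months of age. In both genotypes the treated pups, 2 weeks old, had been given a single intraperitoneal dose of 5 µg DEN per g. PB, 0.05% in the drinking water, began 1 week later and went on to the end. Control mice of both genotypes drank plain autoclaved water, and no DEN dose or PB is recorded for them. The 4 groups were WT with water (2 livers), KO with water (2 livers), WT with DEN/PB (3 samples) and KO with DEN/PB (3 samples), which the submitters describe as biological replicates. The labels call the treated samples tumour tissue and the water samples normal liver, so tissue and treatment cannot be told apart in any comparison below. How the MLK3 knockout was made, in which cells the gene is lost and how tumours were separated from liver are not stated in the labels.

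DEN is a nitrosamine that hepatocytes oxidise, chiefly through Cyp2e1, to a species that alkylates DNA. PB is a tumour promoter that activates the nuclear receptor CAR (Nr1i3), whose best known mouse targets are the Cyp2b genes. MLK3, the product of Map3k11, is a kinase that acts upstream of JNK. Map3k11 itself gave 7.92 and 14.9 CPM (read counts divided by the library total after its adjustment by the TMM method) in the WT water livers, 5.38 and 5.81 in the KO water livers, 12.2, 9.54 and 14.3 in WT DEN/PB and 10, 10.3 and 5.84 in KO DEN/PB. Reads start near the 3' end of the transcript, which may lie outside a deleted part, so these values check neither the knockout nor the labels. The treatment term of Map3k11 did not pass the test (log2 fold change 0.35 ± 0.37 SE, adjusted p = 0.68).

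Libraries held 12408749 to 18081487 counts, and 3 counts, the limit allowed by a count of 0, corresponded to 0.156 to 0.231 CPM. KO DEN/PB replicate 2 stood apart from the other treated libraries: its log expression correlated more closely with the mean of the water livers (r = 0.968) than with that of the treated libraries (r = 0.935), and the other 5 had r of 0.884 to 0.952 and 0.94 to 0.961. The major urinary protein (Mup) genes took 9.58% to 14.3% of counts in water livers, 6.38% to 9.74% in KO DEN/PB and 0.145% to 0.632% in WT DEN/PB. The liver is the source of Alb, which reached 21400 to 62200 CPM in every library.

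Over the 236 shared genes that were higher, the median log2 fold change was 1.69 (0.69 to 10.53), and over the 220 that were lower it was -1.04 (-5.83 to -0.59). The median over all genes tested was 0.07. These 2 sets were picked by the same values, so their medians are a description. Higher genes had a median of 11.6 CPM in water livers and 39.5 CPM with DEN/PB, beside a median level of 9.17 CPM over all genes tested, and 53 of the 236 were under 1 CPM in water livers. Lower genes were well expressed in liver, at a median of 171 CPM in water and 85.5 CPM with DEN/PB. At least 2-fold changes were found for 205 of the higher and 119 of the lower genes.

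The treatment term called 371 genes higher (2.35% of the genes tested) and 288 lower (1.82%). Those that also kept their libraries apart in both genotypes made up 1.49% and 1.39% of the genes tested. Without asking for a call, libraries lay apart in both genotypes for 671 genes in the higher direction (4.24%) and 678 in the lower (4.29%). The other 203 called genes overlapped between treated and water libraries in at least 1 genotype. When libraries were scaled by their totals alone, the median of all genes moved from 0.07 to 0.27 and the split of calls to 572 higher and 115 lower, of which 392 and 88 were shared. At the threshold, Rras (0.76), Mup3 (-3.41) and Mup1 (-5.83) were the last shared genes inside an adjusted p of 0.05, and Cryz (-0.66), Clock (-0.85) and Pdhb (-0.6) were the first genes outside it, all as log2 fold changes.

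The 2 genotypes share no library, so each gives a separate look at genes called in the other. With the 5 WT libraries alone, 1314 genes (8.31%) passed the test. Of these, 1097 (83.5%) had the same sign in the KO libraries, beside 59% of all genes tested, and 413 (31.4%) had KO libraries that lay apart in the same direction, beside 18.3% of all genes. Only 34 of the 1314 (2.59%) lay apart in the opposite direction in KO, against 9.75% of all genes. The median of these genes was 1.92 on the log2 scale in WT, where they were selected, which raises it, and 0.48 in the WT direction in KO. Across the 1314 genes, both directions pooled, Pearson's r was 0.65. It was 0.573 over the 676 called higher and 0.0209 over the 638 called lower, so the sizes of the falls were not correlated between genotypes. These are descriptions over genes that share libraries and are not independent replicates.

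The look in the other direction started from fewer genes. With the 5 KO libraries alone, 4 genes (0.0253%), all higher, passed an adjusted p of 0.05 in edgeR, 1519 genes had an unadjusted p under 0.05 and 426 (2.69%) an unadjusted p of 0.01. Of the 426 genes, 358 (84%) had the same sign in WT and 239 (56.1%) had WT libraries apart in the same direction, beside 26.1% of all genes. Their median was 1.79 in KO, where they were selected, and 0.99 in the KO direction in WT, so that in both directions the selecting genotype had the larger value. The test of the difference between the genotypes' responses, the interaction, called 251 genes (1.59%), among them 39 of the 456 shared genes, 4 higher and 35 lower. The KO response was the smaller in 202 of the 220 lower genes and in 137 of the 236 higher genes.

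**Figure D1:**
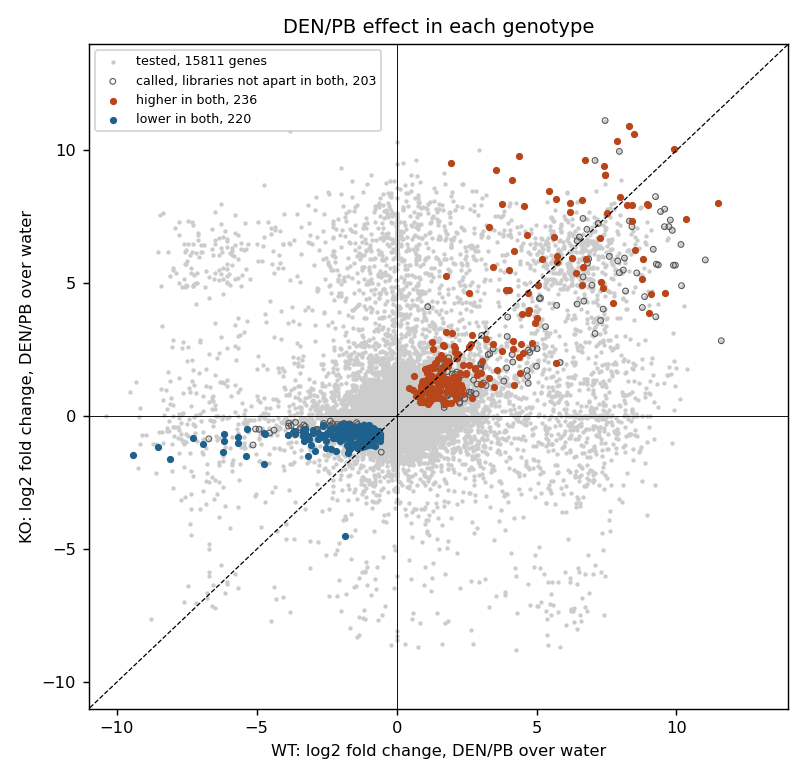
Log2 fold change of DEN/PB over water in WT (x axis) and KO (y axis) for 15811 genes tested, with the 236 higher and 220 lower shared genes in colour, the other 203 called genes as open circles and the diagonal of equal change as a dashed line. Shared lower genes lie above the diagonal in most cases, where the fall in KO is smaller than in WT.

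Among KO treated libraries, replicate 2 lay nearest the water livers for 189 of the 236 higher genes and 157 of the 220 lower genes. Its median distance from the mean of the water livers was 0.63 (log2) over the higher genes, where the other treated libraries had 1.5 to 2.24. Over the lower genes it was -0.38, and the others had -0.67 to -1.47. Without this library 552 genes were shared higher and 514 lower, 448 of the 456 among them. Leaving out the library nearest water, with fewer KO libraries to keep apart, favours higher counts. Without 1 of the other treated libraries, 78 to 120 genes were shared higher and 31 to 63 lower. List counts below without KO DEN/PB replicate 2 share this limit, and none is given for those other fits.

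**Figure D2:**
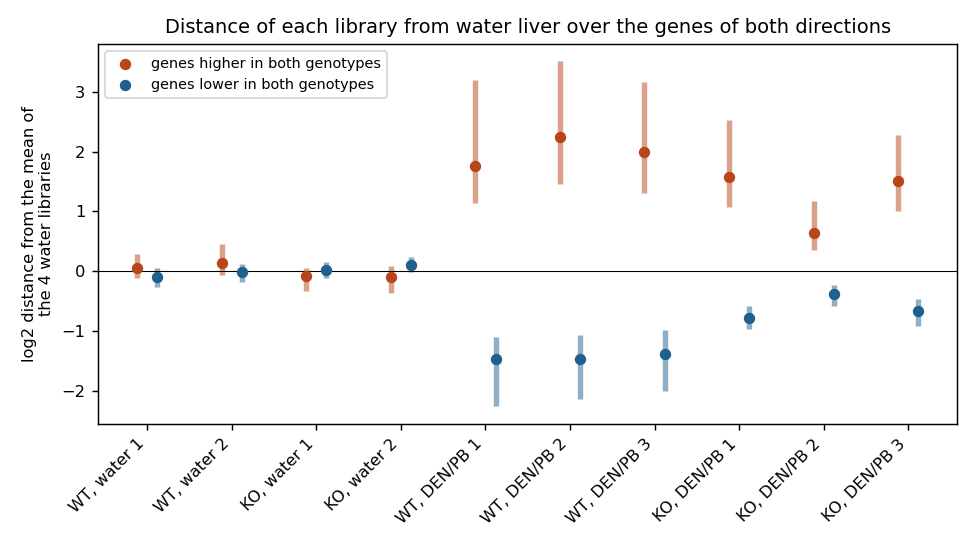
Median (points) and quartiles (bars) of the log2 distance from the mean of the 4 water livers over the shared genes, for each of the 10 libraries. KO DEN/PB replicate 2 sits between the water livers and the other treated libraries in both directions.

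Leaving out each of the 10 libraries in turn showed how many of these calls rest on all of them. In all 10 fits 85 of the 456 genes stayed called, 62 higher and 23 lower. The number lost was 8 without KO DEN/PB replicate 2, 67 and 75 without KO water replicates 1 and 2, and between 245 and 341 without any of the other 7 libraries. No gene of the 456 changed direction in any of these fits. Their selection by libraries apart in each genotype left almost no room for that, so it is no sign of stability. The genes called in all 10 fits are described first within each group below, and for each other gene the fits that lost it are given. List counts below are to be read beside those over all genes tested in the same fit. Without KO DEN/PB replicate 2 these were 552 shared higher and 514 shared lower of 15658 genes. With libraries scaled by totals they were 392 and 88 of 15811 genes. DESeq2 called 1011 higher and 738 lower and gave 468 and 413 shared. In the main fit the shares were 1.49% shared higher, 1.39% shared lower, 2.35% called higher and 1.82% called lower. There, 3123 of the 15811 genes tested had an unadjusted p under 0.05 for the treatment term, either direction.

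The shared gene with the smallest p was Cyp2b9, a cytochrome P450 of the CAR-inducible Cyp2b subfamily that is expressed mainly in female liver. Its level was 0 and 0.126 CPM in the WT water livers and 0 in both KO water livers, 71.2, 70.7 and 62.6 CPM in WT DEN/PB, and 5.09, 5.45 and 15.3 CPM in KO DEN/PB. Every treated library was above every water library. Over all libraries 2 counts in water livers stood against 3670 with DEN/PB, a ratio of 1300 with a 95% counting interval of 359 to 10700. The fitted log2 fold change was 9.92 ± 0.66 (SE, adjusted p = 7.3e-06, highest leave-one-out adjusted p 0.0001). The interaction did not pass the test (adjusted p = 0.89), but water counts near 0 leave each genotype's fold poorly fixed, so equal responses cannot be read from it. Treated levels of the genotypes did not overlap, at a mean of 68.2 CPM in WT and 8.61 CPM in KO. Cyp2b9 (ENSMUSG00000040660.6) lies on chromosome 7 at 26173411 to 26210661, plus strand, of GRCm38. Reads that match several Cyp2b genes may be split or lost, so the single members are uncertain.

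The sequence before the Cyp2b9 start is shown because CAR and other nuclear receptors bind repeats of the core sequence AGGTCA. The window is RefSeq's for GRCm38.p6, chr7:26173159-26173408, plus strand, and capitals mark the core sequence, which begins 138 bases before the start.
Cyp2b9 upstream: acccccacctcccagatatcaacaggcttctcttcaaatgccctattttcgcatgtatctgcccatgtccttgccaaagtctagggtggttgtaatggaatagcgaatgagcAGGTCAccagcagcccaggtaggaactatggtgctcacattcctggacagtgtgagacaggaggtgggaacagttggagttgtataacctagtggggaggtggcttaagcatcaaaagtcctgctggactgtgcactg

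Cyp2b10, the standard marker of CAR activation, was not a shared gene. In KO DEN/PB it reached 91.3, 81.3 and 115 CPM against 1.26 and 0 CPM in KO water livers, while WT DEN/PB gave 0, 0.437 and 3.59 CPM and WT water livers 2.7 and 0 CPM. KO treated libraries, replicate 2 among them, were thus high, and WT treated libraries overlapped with WT water livers. The treatment term gave 3.03 ± 1.72 (adjusted p = 0.35), rising to 7.16 (adjusted p = 0.019) without WT water replicate 1. The interaction did not pass the test (adjusted p = 0.07). Cyp2b10 was 1 of the 4 genes called with KO libraries alone (7.15, adjusted p = 0.022). The others were Dennd4a (4.13), a regulator of Rab GTPases, Leap2 (3.05), a liver-secreted peptide that blocks the ghrelin receptor, and Timm22 (4.68), of the mitochondrial protein import machinery. None of the 4 was shared.

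Of 35 tested CAR and PXR targets, 2 were shared higher and none lower, with a list median of 0.08 (4 higher and 2 lower without KO DEN/PB replicate 2). Beside Cyp2b9 the other was Akr1b7, an aldo-keto reductase, with no count in any water liver, 6.56, 8.37 and 16.7 CPM in WT DEN/PB and 0.925, 0.209 and 3.03 CPM in KO DEN/PB. Set against 3 counts in each water liver, its mean over all treated libraries was at least 31.3-fold higher (adjusted p = 0.014). In KO DEN/PB replicate 2 its level equals the limit allowed by a count of 0 (0.209 CPM), so its separation from KO water livers there cannot be told from 0. Akr1b7 was lost without WT DEN/PB replicate 3 (adjusted p = 0.055). Among 37 enzymes of carcinogen and xenobiotic oxidation Cyp2b9 was the only shared higher gene and Cyp2c69 (-1.73 ± 0.37, adjusted p = 0.025) the only shared lower one. Cyp2c69 was lost in 5 of 10 leave-one-out fits, those without WT water replicate 2, KO DEN/PB replicate 1 or any WT DEN/PB library (up to adjusted p = 0.076). Leaving out KO DEN/PB replicate 2, 2 of the 37 were shared higher and 6 lower.

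Markers of liver tumours and of foetal liver formed the list with the largest shared share of higher genes among those of over 10 members: 23 of 43 were called higher and 7 of 43 (16.3%) were shared, none lower, at a median of 2.88 (2.83 with the 2 members that had no count in an arm set at their bound). Those called in all 10 leave-one-out fits were Akr1c18, Spink1, Golm1 and Cbr3. Akr1c18, which inactivates progesterone, rose from 0.754, 1.2, 0 and 0.567 CPM in the water livers (WT 1, WT 2, KO 1, KO 2) to 262, 284 and 342 CPM in WT DEN/PB and 74.8, 1.68 and 122 CPM in KO DEN/PB (8.13 ± 1.02, adjusted p = 0.0031). KO DEN/PB replicate 2 was the lowest treated library, yet above all water livers.

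Spink1, a secreted trypsin inhibitor, was at 0 to 1.95 CPM in water livers, 126, 858 and 306 CPM in WT DEN/PB and 19.9, 1.95 and 55.1 CPM in KO DEN/PB (7.78 ± 1.16, adjusted p = 0.0063). KO DEN/PB replicate 2 thus reached only the level of the highest WT water liver, although it exceeded both KO water livers. Golm1, a Golgi membrane protein used as a serum marker of liver cancer, had 0 to 0.817 CPM in water livers, 33.9 to 46.4 CPM in WT DEN/PB and 4.96 to 14.3 CPM in KO DEN/PB (5.85 ± 0.84, adjusted p = 0.0061). Cbr3, a carbonyl reductase, had 0.142 to 3.09 CPM in water livers, 29.8, 153 and 146 CPM in WT DEN/PB and 22.2, 0.698 and 15.2 CPM in KO DEN/PB (5.74 ± 0.86, adjusted p = 0.0063). For Golm1 all treated libraries exceeded all water livers, and for Cbr3 KO DEN/PB replicate 2 exceeded the KO water livers but not the WT water livers.

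The other shared members of this list were Akr1b7, Lpl and Trib3. Lpl, the lipase that clears plasma triglyceride and is nearly silent in adult hepatocytes, had 28.6 to 39.4 CPM in water livers, 536 to 675 CPM in WT DEN/PB and 185, 45.5 and 100 CPM in KO DEN/PB (2.88 ± 0.55, adjusted p = 0.017). It was lost without WT water replicate 1 or KO DEN/PB replicate 1 (up to 0.057). Its rise was smaller in KO (interaction adjusted p = 0.018), as was that of Trib3, a pseudokinase of the stress response (2.53, adjusted p = 0.037, interaction adjusted p = 0.033). Trib3 stayed called only without KO water replicate 1, KO water replicate 2 or KO DEN/PB replicate 2 and was weakest without WT water replicate 1 (0.12).

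Classical markers passed the treatment test without being shared. Afp, alpha-fetoprotein, gave 0.283 to 6.35 CPM in water livers, 452, 146 and 534 CPM in WT DEN/PB and 446, 3.84 and 169 CPM in KO DEN/PB. It was called in all 10 leave-one-out fits (6.38 ± 1.11, adjusted p = 0.012), but KO DEN/PB replicate 2 lay between the KO water livers. The same library kept Gpc3, glypican-3 (5.94 ± 1.49, adjusted p = 0.041), at 0.489 CPM, where KO DEN/PB replicates 1 and 3 had 46.9 and 48.9 CPM and WT DEN/PB had 349 to 610 CPM. Gpc3 was lost in 7 fits and weakest without WT water replicate 1 (0.11). Tspan8 and Bex1 had the same pattern, with 0.349 and 0 CPM in that library. Without KO DEN/PB replicate 2, 24 of the list's members were shared higher in place of 7.

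**Figure D3:**
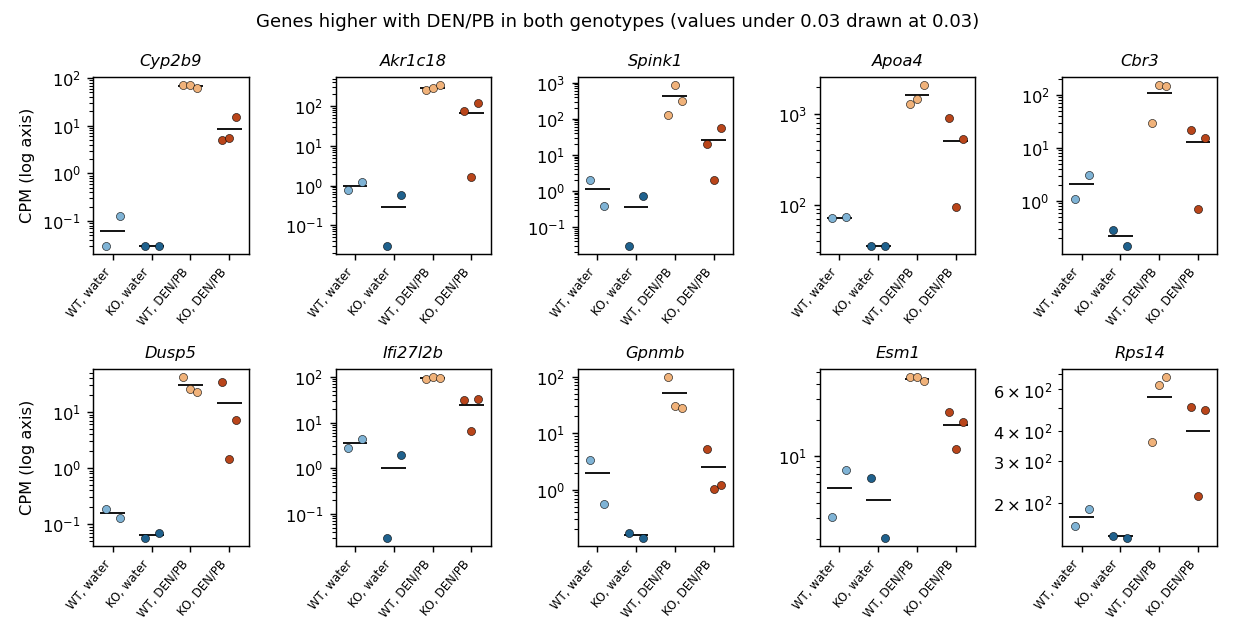
CPM per library on a log axis (points) and group means (lines) for 10 genes higher with DEN/PB in both genotypes. Treated libraries of each genotype lie above its water livers in every panel, and the lowest KO DEN/PB point is replicate 2 in each panel but that of Cyp2b9.

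Genes at the head of the ranking by p that belong to no such list were Chmp4c, Ipcef1 and Klrb1b, all called in every leave-one-out fit. Chmp4c, an ESCRT-III subunit that delays the last step of cell division, had at most 0.189 CPM in water livers, 15.7, 30.2 and 22.2 CPM in WT DEN/PB and 5.32, 4.05 and 7.5 CPM in KO DEN/PB (7.75 ± 0.69, adjusted p = 0.00015). All 6 treated libraries were high. Ipcef1, a partner of cytohesin exchange factors, had at most 0.126 CPM in water livers, 24.5 to 26.4 CPM in WT DEN/PB and 20.7, 1.4 and 14.3 CPM in KO DEN/PB (8.06 ± 0.87, adjusted p = 0.0012). Klrb1b, an inhibitory receptor known from natural killer cells, had at most 0.126 CPM in water livers, 32.4, 73.8 and 36.2 CPM in WT DEN/PB and 25.1, 0.908 and 12.7 CPM in KO DEN/PB (8.79 ± 1, adjusted p = 0.0017). None of the 27 tested T and NK cell markers, whose counts are given below with the other cell type lists, was called.

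Apoa4, an apolipoprotein of triglyceride-rich particles, was among the most abundant of the higher genes. It had 71.3 and 72.8 CPM in WT water livers, 35.3 and 35.1 CPM in KO water livers, 1280, 1470 and 2090 CPM in WT DEN/PB and 910, 93.9 and 530 CPM in KO DEN/PB. All treated libraries exceeded all water livers, by 4.17 ± 0.5 on the log2 scale (adjusted p = 0.0024, at most 0.01 in leave-one-out fits). Its neighbour Apoa5, within 100000 bases on chromosome 9, was shared lower (-0.79, adjusted p = 0.033, weakest without WT water replicate 1 at 0.11), as was Serpina1e next to the shared higher gene Serpina12 on chromosome 12.

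The list of immediate early genes and MAPK feedback held 4 of 36 shared higher genes (11.1%) and none lower, at a median of 1.17. Dusp5, the nuclear phosphatase that ERK signalling induces, had at most 0.189 CPM in water livers, 42, 26 and 22.7 CPM in WT DEN/PB and 34.8, 1.47 and 7.07 CPM in KO DEN/PB (7.57 ± 0.92, adjusted p = 0.0024). Ccn2, a matricellular protein, rose by 2.29 ± 0.44 (adjusted p = 0.018), and both genes stayed called in all 10 leave-one-out fits. Maff, a small Maf transcription factor (2.63, adjusted p = 0.021), was lost without KO DEN/PB replicate 3 (0.056). Klf10, a TGF-beta-inducible zinc finger protein (1.56, adjusted p = 0.042), held only without KO water replicate 1 or KO DEN/PB replicate 2 and was weakest without WT DEN/PB replicate 3 (0.12). Of this list, 10 genes were shared higher without KO DEN/PB replicate 2. The list of the MLK and JNK pathway itself had no called member among 26 by edgeR, 1 at an unadjusted p under 0.05, 1 by DESeq2 and 0 by limma voom, at a median of -0.04.

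Secreted and signalling genes that stayed called in all 10 fits, named here after their values were seen, included Inhbb, a subunit of activin B (7.55 ± 1.12), and the receptor gene Ifngr1 (1.59 ± 0.22). Inhbb had 2 counts in water livers against 648 with DEN/PB (ratio 229, counting interval 63.1 to 1890). The transcription factor genes Irx3 (6.08 ± 0.92), Hes1, a Notch target (1.37 ± 0.25), and Bhlhe40, a clock repressor (0.96 ± 0.17), rose too. Matrix and vascular genes among them were Nid1, a basement membrane protein (3.32 ± 0.46), Itih5 (3.46 ± 0.51), Vcam1, an adhesion molecule (1.53 ± 0.26), and Esm1, a proteoglycan of activated endothelium. Esm1 had 2.05 to 7.57 CPM in water livers, 42 to 45.6 CPM in WT DEN/PB and 23.1, 11.3 and 19.3 CPM in KO DEN/PB (2.55 ± 0.41, adjusted p = 0.0092). It was the only 1 of 29 endothelial markers called by edgeR (3.45%, beside 1.49% of all genes shared higher), and DESeq2 called 2. The summed level of the endothelial list was 736 to 895 CPM in water livers and 790 to 981 CPM in treated libraries.

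Cell cycle genes had a list median of 1.36, with 45 of 52 above 0. Of the 52, 3 were called and 2 (3.85%) shared by edgeR, where 1.49% of all genes tested were shared higher. DESeq2 called 14 and gave 7 shared, and 7 were shared without KO DEN/PB replicate 2. Cks1b, a cyclin-dependent kinase subunit, stayed called in all 10 fits. It had 18.7 and 18.6 CPM in WT water livers, 7.15 and 4.89 CPM in KO water livers, 43.3, 34.5 and 40.9 CPM in WT DEN/PB and 25, 15.6 and 18.2 CPM in KO DEN/PB (1.38 ± 0.25, adjusted p = 0.015). KO treated libraries thus reached about the level of WT water livers, and the response was seen only against the same genotype's water. Top2a, topoisomerase II alpha, had 0.126 to 1.51 CPM in water livers, 38.6, 8.37 and 18.8 CPM in WT DEN/PB and 15.9, 0.977 and 10.2 CPM in KO DEN/PB (4.37 ± 0.89, adjusted p = 0.021), and was lost without WT DEN/PB replicates 1 or 3 or KO DEN/PB replicate 1 (up to 0.059). Mki67 missed the threshold (4.4 ± 1.2, adjusted p = 0.056).

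Among 38 genes of p53 and the DNA damage response, Psrc1 and Zmat3 were shared higher and Ei24 lower. Psrc1, a microtubule protein, had no count in any water liver, 13.6, 45.2 and 11 CPM in WT DEN/PB and 5.7, 0.0698 and 0.649 CPM in KO DEN/PB. Set against 3 counts in each water liver, its mean over all treated libraries was at least 66.7-fold higher (adjusted p = 0.017). In KO DEN/PB replicate 2 the level of Psrc1 is under the limit allowed by a count of 0. Zmat3 (1.54, adjusted p = 0.035) held only without KO water replicate 1 or KO DEN/PB replicate 2, and Ei24 (-0.74, adjusted p = 0.041) only without KO water replicate 2 or KO DEN/PB replicate 2. They were weakest without WT DEN/PB replicate 2 (0.11) and WT water replicate 2 (0.13). Of this list, 4 genes were shared higher without KO DEN/PB replicate 2, and 6 with libraries scaled by totals.

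Stress lists gave 4 of 31 shared higher genes for serine synthesis and ATF4 targets (12.9%, median 0.29) and 3 higher and 2 lower of 31 for NRF2 targets (median 0.32). Slc7a11, the cystine transporter on both lists, had 3 counts in water livers against 2078 with DEN/PB (ratio 489, counting interval 167 to 2380). Its levels were 18.3, 66.7 and 12.4 CPM in WT DEN/PB and 46.8, 0.0698 and 0.577 CPM in KO DEN/PB, so that KO replicate 1 carries most of the KO value. In KO DEN/PB replicate 2 the level is under the limit allowed by a count of 0 (0.209 CPM), so its separation from KO water livers cannot be told from 0, and the call was lost without WT water replicate 1 (0.059). Fgf21, a hepatokine, rose by 4.62 ± 0.88 (adjusted p = 0.017) and was lost without WT DEN/PB replicates 2 or 3 (up to 0.062). Nupr1, a stress-induced chromatin protein, rose by 4.2 ± 0.79 (adjusted p = 0.017) and was lost without WT DEN/PB replicate 2 (0.064). Its levels were 0.0572 and 0.0708 CPM in KO water livers, under the limit allowed by a count of 0, and 0.848, 0.489 and 4.47 CPM in KO DEN/PB.

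Nqo1, a quinone reductase and a standard NRF2 target, had 2 to 5.97 CPM in water livers, 17.5, 45.7 and 25.9 CPM in WT DEN/PB and 13.5, 10.1 and 6.2 CPM in KO DEN/PB (2.03 ± 0.42, adjusted p = 0.022). All treated libraries exceeded all water livers, although 5 of 10 leave-one-out fits lost the call (up to 0.061): those without a WT water library, WT DEN/PB replicates 2 or 3, or KO DEN/PB replicate 1. The ferritin light chain gene Ftl1 (-0.68, adjusted p = 0.047) and the peroxiredoxin gene Prdx6 (-0.77, adjusted p = 0.047) fell. Prdx6 held only without a KO water library or KO DEN/PB replicate 2, and Ftl1 only without KO water replicate 1 or KO DEN/PB replicate 2. Both were weakest without WT water replicate 2 (0.14 and 0.18). The NRF2 list had 5 shared higher and 3 shared lower genes without KO DEN/PB replicate 2, and 5 and 0 with libraries scaled by totals. None of 23 genes listed as endoplasmic reticulum chaperones was called by edgeR or limma voom (4 at an unadjusted p under 0.05, 3 by DESeq2). The listed gene with the smallest p, Ern1, encodes a sensor of endoplasmic reticulum stress rather than a chaperone and gave 0.75 (adjusted p = 0.069).

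Genes of the cytosolic ribosome shifted upward by a small amount: 57 of 61 had a log2 fold change above 0, the median was 0.54, 10 were called and 7 shared (11.5%), none lower. Rps14 had 160 and 189 CPM in WT water livers, 146 and 143 CPM in KO water livers, 362, 628 and 677 CPM in WT DEN/PB and 507, 214 and 490 CPM in KO DEN/PB (1.57 ± 0.27, adjusted p = 0.011). Rps14, Rps12 (1.96 ± 0.34) and Rpl34 (1.56 ± 0.29) stayed called in all 10 fits. Processed pseudogenes of ribosomal proteins were shared higher in 23 of 137 cases (16.8%), where all pseudogenes had 2.77%. Such copies are nearly identical to their parent genes, so single members of both kinds are uncertain. The most abundant of them, Rpl36-ps2 (1.27, adjusted p = 0.029) and Rpl17-ps9 (1.92, adjusted p = 0.027), were lost in 5 fits, those without WT water replicate 1, WT DEN/PB replicates 2 or 3, or KO DEN/PB replicates 1 or 3 (up to 0.08). In the fit without KO DEN/PB replicate 2, 20 of the 61 ribosomal protein genes were shared higher, and 13 with libraries scaled by totals.

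Interferon-stimulated genes had a log2 fold change above 0 in 38 of 45 cases, with 6 called and 5 shared (11.1%), none lower, at a median of 0.76. Of these, 3 sit side by side on chromosome 12 between 103434211 and 103457223: Ifi27, Ifi27l2a and Ifi27l2b, which encode small mitochondrial or membrane proteins. Ifi27l2b had 2.76 and 4.42 CPM in WT water livers, 0 and 1.98 CPM in KO water livers, 88.1, 99.4 and 92.8 CPM in WT DEN/PB and 31.4, 6.56 and 33.4 CPM in KO DEN/PB. All treated libraries were above all water livers (4.67 ± 0.66, adjusted p = 0.0057). Ifi27 rose by 1.14 ± 0.19 (adjusted p = 0.011) and stayed called in all 10 fits, as Ifi27l2b did. Ifi27l2a (2.26, adjusted p = 0.027) held only without a KO water library or KO DEN/PB replicate 2, and was weakest without KO DEN/PB replicate 1 (0.082).

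Isg15, a ubiquitin-like interferon product (1.84, adjusted p = 0.023), was lost in 5 fits, those without a WT water library, WT DEN/PB replicates 2 or 3, or KO DEN/PB replicate 1 (up to 0.063). Another cluster, on chromosome 17 between 34181987 and 34269419, held Psmb9, a subunit of the immunoproteasome (1.1, adjusted p = 0.041), the peptide transporter gene Tap2 (1.07, adjusted p = 0.026) and the class II antigen gene H2-Ab1 (1.35, adjusted p = 0.031). Psmb9 held only without KO water replicate 2 or KO DEN/PB replicate 2, Tap2 only without a KO water library or KO DEN/PB replicate 2, and H2-Ab1 in these fits and without WT water replicate 2. Psmb9 and H2-Ab1 were weakest without WT water replicate 1 (0.12 and 0.081) and Tap2 without KO DEN/PB replicate 3 (0.063). The interferon list had 11 shared higher genes without KO DEN/PB replicate 2, and 9 with libraries scaled by totals.

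Markers of macrophages and Kupffer cells were called higher in 11 of 37 cases and shared in 4 (10.8%), none lower, at a median of 0.98. Gpnmb, a glycoprotein of lipid-laden macrophages, had 0.142 to 3.39 CPM in water livers, 98.2, 30.1 and 27.3 CPM in WT DEN/PB and 5.16, 1.05 and 1.23 CPM in KO DEN/PB (4.47 ± 0.73, adjusted p = 0.0097, called in all 10 fits). KO levels exceeded those of KO water livers, but KO DEN/PB replicates 2 and 3 lay between the WT water livers. Cd5l, a Kupffer cell product, rose by 1.09 (adjusted p = 0.025, called in 4 of 10 fits), Ccr2, the receptor of recruited monocytes, by 4.99 (adjusted p = 0.027, called in 3 of 10 fits), and H2-Ab1 as given above. Ccr2 had 0.0572 to 0.189 CPM in water livers, at or under the limit allowed by a count of 0, so its fold is poorly fixed. It had 3.34 to 5.68 CPM in WT DEN/PB and 1.4 to 2.77 CPM in KO DEN/PB. Cd5l and Ccr2 were weakest without WT water replicate 1 (0.083) and without WT DEN/PB replicate 1 (0.075). The macrophage list had 13 shared higher genes without KO DEN/PB replicate 2.

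The summed level of the macrophage list was 1020 to 1480 CPM in water livers, 1750 to 2720 CPM in WT DEN/PB and 1320 to 2120 CPM in KO DEN/PB. Neutrophil markers (8 of 13 listed were tested) summed to 13.1 to 26.5 CPM in water livers, 58.8 to 235 CPM in WT DEN/PB and 21.3 to 207 CPM in KO DEN/PB. The lowest KO value was in replicate 2. Their shared member was S100a8 (3.5 ± 0.72, adjusted p = 0.022, lost without WT DEN/PB replicate 3 at 0.067). It made up much of the sum, at 2.8 to 17.4 CPM in water livers, 33.7, 72.5 and 159 CPM in WT DEN/PB and 148, 9.22 and 110 CPM in KO DEN/PB. T and NK cell markers summed to 27.3 to 44.8 CPM in water livers, 56.3 to 120 CPM in WT DEN/PB and 31.2 to 128 CPM in KO DEN/PB, and of the list only Ncr1 was at 0 in every library. Beside its median of 2.2 (1.83 with 5 members without a count in an arm set at their bound) no member of this list was called by edgeR or limma voom, 8 had an unadjusted p under 0.05 and 5 were called by DESeq2. B and plasma cell markers had no called member either (16 tested, median 0.34, 4 at an unadjusted p under 0.05, 3 by DESeq2 and 0 by limma voom). Shared higher were 3 neutrophil markers, 1 T and NK cell marker and 2 B and plasma cell markers without KO DEN/PB replicate 2. In bulk tissue, more cells of a type and more RNA per cell cannot be told apart, and the part of such cells in the rise of the interferon and macrophage genes was not tested.

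Cholangiocyte and progenitor markers, with 7 of 22 called higher, had no shared member. Their summed level was 599 to 732 CPM in water livers, 1750 to 2230 CPM in WT DEN/PB and 1070, 609 and 928 CPM in KO DEN/PB. KO replicate 2 lay within the water range, and without it 8 members were shared higher. Stellate cell and matrix genes had 1 shared member of 41 (2.44%, beside 1.49% of all genes shared higher), and 4 without KO DEN/PB replicate 2. That member, Col4a1 (1.13, adjusted p = 0.036), was called in 3 of 10 fits and weakest without WT water replicate 2 (0.095). Blood was represented by Hbb-bs (1.37 ± 0.21, adjusted p = 0.0085) and Hbb-bt (1.16 ± 0.21, adjusted p = 0.014), the beta-globin genes of red cells, which rose in all 10 fits and in KO DEN/PB replicate 2 as much as in the other treated libraries: Hbb-bs had 553 to 727 CPM in water livers, 1150 to 2180 CPM in WT DEN/PB and 1600, 1430 and 1460 CPM in KO DEN/PB. The 2 globin genes are near copies and share reads.

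Among the lower genes the largest list share belonged to the urea cycle and amino acid breakdown: 20 of 50 tested members were called lower and 16 (32%) were shared, none higher, beside 1.39% of all genes tested. The list median was -0.68, and 4 members lay above 0. Nags makes the activator of the first urea cycle enzyme. It had 75.5 and 96.3 CPM in WT water livers, 76.1 and 88.9 CPM in KO water livers, 33.4, 34.7 and 38.7 CPM in WT DEN/PB and 50.1, 48.1 and 44.7 CPM in KO DEN/PB. Every treated library was below every water liver (-1.04 ± 0.17, adjusted p = 0.0097, 2.05-fold), and the KO libraries, replicate 2 included, lay close together.

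Homocysteine metabolism was represented by Cbs, cystathionine beta-synthase, and Bhmt2, a betaine-homocysteine methyltransferase, both called in all 10 fits. Cbs had 254 to 336 CPM in water livers, 74.1 to 95.2 CPM in WT DEN/PB and 129, 226 and 173 CPM in KO DEN/PB (-1.29 ± 0.23, adjusted p = 0.013). Bhmt2 had 209 to 245 CPM in water livers, 69 to 95.9 CPM in WT DEN/PB and 108, 178 and 109 CPM in KO DEN/PB (-1.21 ± 0.22, adjusted p = 0.016). The neighbouring genes Bhmt and Dmgdh, of the same betaine pathway on chromosome 13, fell with it (-2.48 and -1.84), although they were called in 6 and 4 of 10 fits and were weakest without WT DEN/PB replicate 3 (0.084 and 0.089).

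Enzymes of the urea cycle proper fell less firmly. Cps1, the first enzyme (-0.87, adjusted p = 0.046), and Ass1, argininosuccinate synthase (-1.31, adjusted p = 0.039), were called only without a KO water library or KO DEN/PB replicate 2, and Asl, argininosuccinate lyase (-1.1, adjusted p = 0.027), also without KO DEN/PB replicate 3. They were weakest without WT water replicate 1 (0.14 for Cps1) or WT DEN/PB replicate 3 (0.11 and 0.077). In KO DEN/PB Ass1 had 352, 783 and 729 CPM against 786 and 863 CPM in KO water livers, so replicates 2 and 3 differed little from water. Without KO DEN/PB replicate 2, 27 of the 50 members were shared lower.

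Further genes of hepatocyte metabolism stayed called in all 10 fits. Ido2, of tryptophan breakdown, had 58.2 to 95.1 CPM in water livers, 18.4 to 23.2 CPM in WT DEN/PB and 33.1 to 45.2 CPM in KO DEN/PB (-1.31 ± 0.19, adjusted p = 0.0057). Gulo, the last enzyme of vitamin C synthesis, had 1150 to 1450 CPM in water livers, 315 to 388 CPM in WT DEN/PB and 644, 902 and 666 CPM in KO DEN/PB (-1.39 ± 0.24, adjusted p = 0.011). Treated and water libraries did not overlap for either gene. Tmem25, a transmembrane protein (-1.46 ± 0.2), and Gpat4, a glycerol-phosphate acyltransferase of triglyceride synthesis (-1.21 ± 0.16), had the smallest p of all lower genes (adjusted p = 0.005 for both). Trap1, the mitochondrial HSP90 chaperone, fell by the same amount in the 2 genotypes (-1.14 in WT and -1.12 in KO, adjusted p = 0.0063). Ppp1r3b, the subunit that directs a phosphatase to glycogen, fell by 1.44 ± 0.23 on the log2 scale (adjusted p = 0.0092).

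Fatty acid oxidation and ketone synthesis had 4 of 46 shared lower genes and 1 higher, Fgf21, which is a regulator of the process rather than an enzyme of it, at a median of -0.54. Acot1, an acyl-CoA thioesterase under PPAR-alpha control, was called in all 10 fits, with 13.4 to 33.9 CPM in water livers, 1.25 to 3.72 CPM in WT DEN/PB and 6.63, 15 and 13.6 CPM in KO DEN/PB (-2.35 ± 0.43, adjusted p = 0.015). KO DEN/PB replicates 2 and 3 were slightly above the lower WT water liver and below both KO water livers. Cpt2, of carnitine-dependent import (-0.95, adjusted p = 0.018), was lost without WT water replicate 1 or KO DEN/PB replicate 1 (up to 0.052). The list had 17 shared lower genes without KO DEN/PB replicate 2. Hsd17b4, a peroxisomal oxidation enzyme (-0.98, adjusted p = 0.027), held without a KO water library or KO DEN/PB replicates 2 or 3 and was weakest without WT DEN/PB replicate 1 (0.074).

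Cholesterol synthesis had 4 of 27 shared lower genes (14.8%) and none higher, at a median of -0.63. Msmo1, a sterol methyl oxidase, had 474, 976, 782 and 747 CPM in the water livers, 310 to 339 CPM in WT DEN/PB and 334 to 434 CPM in KO DEN/PB (-1.07 ± 0.2, adjusted p = 0.017, called in all 10 fits). The falls in the 2 genotypes were alike in size for this gene, -1.15 in WT and -0.99 in KO. Nsdhl (-0.8), Hsd17b7 (-0.67) and Ebp (-0.91), later enzymes of the pathway, were called only without a KO water library or KO DEN/PB replicate 2 and were weakest without WT water replicate 2 (0.091 to 0.098). In the fit without KO DEN/PB replicate 2, 8 of the 27 were shared lower, and 1 with libraries scaled by totals.

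Genes of lipid storage, glucose use and conjugation moved in both directions. Of 49 genes of fatty acid synthesis and storage, Plin3, a lipid droplet coat protein (1, adjusted p = 0.022), Fabp2 (0.99, adjusted p = 0.032) and Lpl were shared higher. Plin5, the droplet protein of oxidative tissues, was shared lower (-1.58, adjusted p = 0.04). Of 38 genes of glycolysis and gluconeogenesis 1 was shared (2.63%, beside 1.39% of all genes shared lower). It was Pdk2, a kinase that shuts off pyruvate dehydrogenase (-1.08, adjusted p = 0.029). Of 46 conjugation enzymes 2 were shared lower, among them Gstp2, a glutathione transferase (-0.92, adjusted p = 0.046). Plin3, Fabp2, Plin5, Pdk2 and Gstp2 stayed called in 2 to 5 of 10 leave-one-out fits, with adjusted p values of up to 0.066 to 0.13. Without KO DEN/PB replicate 2, shared lower genes numbered 6 for fatty acid synthesis and storage, 2 for glycolysis and gluconeogenesis and 10 for conjugation, and 2 conjugation enzymes were shared higher.

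Respiratory chain subunits of the nuclear genome were shared lower in 3 of 58 cases, Cox5b (-0.69), Atp5a1 (-0.72) and Atp5d (-0.68). Of the 58, 9 had a value above 0 (median -0.47) and 36 an unadjusted p under 0.05. Cox5b and Atp5a1 were called only without a KO water library or KO DEN/PB replicate 2, and Atp5d only without KO water replicate 2 or KO DEN/PB replicate 2. They were weakest without a WT water library (0.12 to 0.15). In the fit without KO DEN/PB replicate 2, 14 of the 58 were shared lower, and with libraries scaled by their totals none was, where DESeq2 gave 17. The mitochondrial genome had 1 shared gene in each direction among 13, mt-Nd2 (-0.97) and mt-Atp8 (1.07), called in 3 and 2 of 10 fits and weakest without WT water replicate 1 (0.09) and WT DEN/PB replicate 3 (0.095). Of 45 hepatocyte transcription factors 2 were shared lower, Rxra, the partner of many nuclear receptors (-0.69, adjusted p = 0.025), and Prox1 (-0.91, adjusted p = 0.028). Both were called in 3 of 10 fits and weakest without WT water replicate 1 (0.081 and 0.12). Of the 45, 11 lay above 0 (median -0.33) and 14 had an unadjusted p under 0.05. The mitochondrial genes had 5 shared lower members and the transcription factors 7 without KO DEN/PB replicate 2, and neither list had any with libraries scaled by totals.

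Secreted plasma proteins were shared lower in 6 of 75 cases and higher in 2, Apoa4 and Apom (1.07, weakest without WT water replicate 1 at 0.1), at a median of -0.12 that became 0.08 when libraries were scaled by their totals alone. Serpina1e, an alpha-1-antitrypsin gene, was called in all 10 fits and had 11300 to 13600 CPM in water livers, 3510, 1400 and 2920 CPM in WT DEN/PB and 6520, 4460 and 4630 CPM in KO DEN/PB (-1.81 ± 0.3, adjusted p = 0.0097). The treated libraries lay below the water livers throughout. It has near-identical neighbours, so the single gene is uncertain. Among 33 complement genes 5 were shared lower and 1, properdin (Cfp, 1.47, called in 2 of 10 fits and weakest without WT water replicate 1 at 0.097), higher. The lower genes were C6 (-2.29), C8b (-1.49), C9 (-1.69), Mbl1 (-1.44) and C1rl (-0.63), each lost in at least 4 of 10 leave-one-out fits, up to adjusted p values of 0.11, 0.069, 0.081, 0.077 and 0.1. With KO DEN/PB replicate 2 left out, 10 secreted plasma proteins were shared lower, and with libraries scaled by totals 2. The falls of C6, C8b and Mbl1 were smaller in KO by the interaction test.

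**Figure D4:**
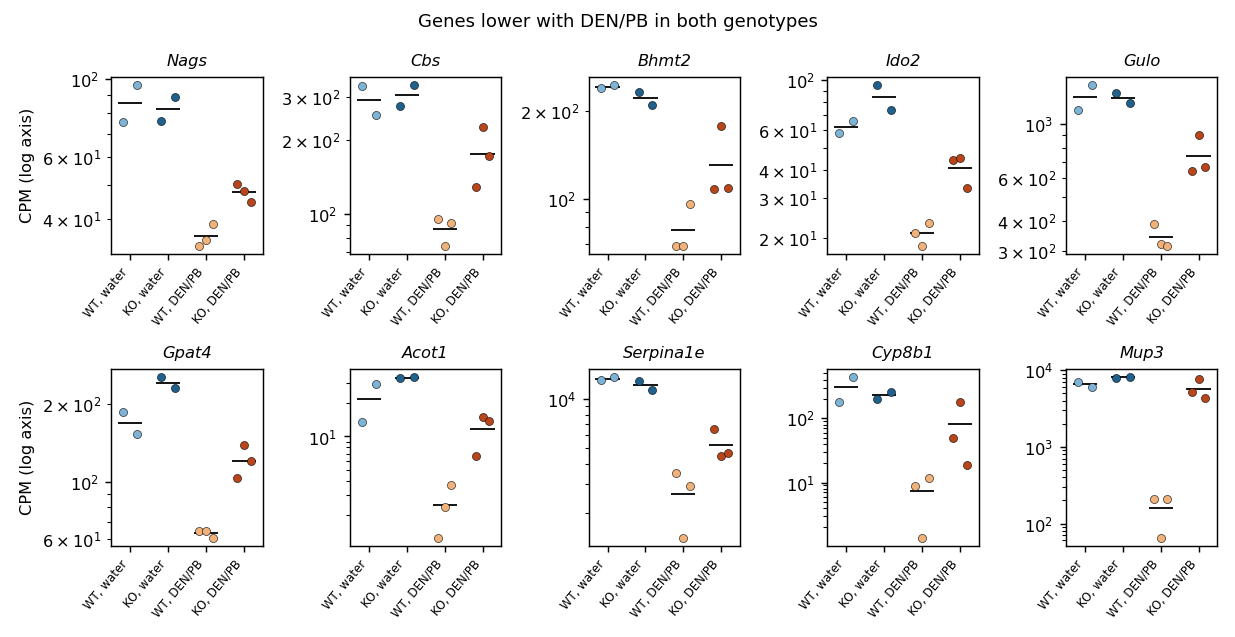
CPM per library on a log axis (points) and group means (lines) for 10 genes lower with DEN/PB in both genotypes. KO DEN/PB lies between the water livers and WT DEN/PB in most panels, and for Mup3 it lies close to the water livers.

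Bile acid synthesis and transport had 6 of 31 shared lower genes and 1 higher, Cyp39a1. Cyp8b1, the sterol 12-alpha-hydroxylase that sets the share of cholic acid, had 182, 440, 202 and 255 CPM in the water livers, 8.91, 1.38 and 11.8 CPM in WT DEN/PB and 49.4, 177 and 18.5 CPM in KO DEN/PB. KO DEN/PB replicate 2 was just under the water livers and the other 2 were well below. The fold change was -3.7 ± 0.89 (adjusted p = 0.036, interaction adjusted p = 0.11). It was called only without WT water replicate 2, a KO water library or KO DEN/PB replicate 2 and was weakest without WT DEN/PB replicate 1 (0.12). Amacr, a racemase of side chain oxidation, fell alike in the 2 genotypes (-0.8 in each, adjusted p = 0.017) and was lost only without WT water replicate 1 (0.057). Scp2 (-1.09), Slc27a5 (-1.17) and Cyp39a1 (2.69) were called only without a KO water library or KO DEN/PB replicate 2, with adjusted p values of up to 0.099, 0.076 and 0.11 otherwise. The list had 13 shared lower genes without KO DEN/PB replicate 2.

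The sequence before the Cyp8b1 start is shown because it holds a match to the binding sequence of the hepatocyte factor HNF4, present in few promoters. The RefSeq window is chr9:121916306-121916555 of GRCm38.p6, minus strand, and capitals mark the HNF4 match and the TATA box, which begin 67 and 31 bases before the start.
Cyp8b1 upstream: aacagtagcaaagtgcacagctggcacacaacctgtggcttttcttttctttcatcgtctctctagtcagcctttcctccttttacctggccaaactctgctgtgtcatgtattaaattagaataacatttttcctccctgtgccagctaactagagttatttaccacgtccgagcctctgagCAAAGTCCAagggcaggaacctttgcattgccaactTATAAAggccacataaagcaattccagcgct

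Genes with higher expression in male than in female liver made up another large block: 13 of 43 (30.2%) were shared lower and none higher, at a list median of -3.41. The genotypes differed in size, with a median of -5.35 in WT and -0.53 in KO, and 27 of the 43 had a called interaction. Mup3, a major urinary protein, had 7010 and 6090 CPM in WT water livers, 7980 and 8180 CPM in KO water livers, 206, 65.2 and 210 CPM in WT DEN/PB and 5170, 7760 and 4400 CPM in KO DEN/PB. WT treated libraries were far below water, while KO replicate 2 was only just under it. The additive fit gave -3.41 ± 0.9 (adjusted p = 0.05) and the interaction an adjusted p of 0.00026. Of the list, 25 were shared lower without KO DEN/PB replicate 2, and 8 with libraries scaled by totals.

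Among genes with a regular symbol and at least 10 CPM in an arm, the 10 largest shared falls were those of Mup1 (-5.83), Mup7 (-5.19), Mup6 (-4.89), Susd4, a complement regulator (-4.16), Car3, a carbonic anhydrase (-4.14), Cyp7b1, an oxysterol hydroxylase (-3.98), the sodium channel gene Scnn1a (-3.84), Mup-ps22 (-3.79), Cyp8b1 and Slco1a1, an organic anion transporter (-3.67). KO values ran from -1.48 to -0.65 and WT values from -9.42 to -5.39. The interaction was called for 9 of the 10, Cyp8b1 being the exception. All 10 were lost without any WT DEN/PB library, without WT water replicate 1 and without KO DEN/PB replicates 1 or 3, with adjusted p values of up to 0.1 to 0.19. They were weakest without WT DEN/PB replicates 1 or 3. The Mup genes are near-identical copies, so single members are uncertain.

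Igfals, the liver-made acid-labile subunit that carries IGF1 in plasma and a growth hormone target, had 66.3 and 88.7 CPM in WT water livers, 111 and 120 CPM in KO water livers, 6.2, 16.7 and 13.3 CPM in WT DEN/PB and 45.1, 88.1 and 67.9 CPM in KO DEN/PB. Within each genotype the groups did not overlap, although KO DEN/PB replicate 2 matched a WT water liver. The fold change was -1.79 ± 0.37 (adjusted p = 0.023), lost without WT DEN/PB replicates 2 or 3 or KO DEN/PB replicate 1 (up to 0.069). Of 29 genes of the growth hormone and IGF axis the other shared gene was Egfr, the EGF receptor (-1.57, adjusted p = 0.046), called only without a KO water library or KO DEN/PB replicate 2 and weakest without WT DEN/PB replicate 1 (0.14). The axis had 2 shared higher and 5 shared lower genes without KO DEN/PB replicate 2. Growth hormone acts on male liver genes largely through STAT5, and the sequence before an Igfals start is shown for its STAT5 match. The window is chr17:24877981-24878230 of GRCm38.p6, plus strand, and capitals mark the match, which begins 58 bases before the start.
Igfals upstream: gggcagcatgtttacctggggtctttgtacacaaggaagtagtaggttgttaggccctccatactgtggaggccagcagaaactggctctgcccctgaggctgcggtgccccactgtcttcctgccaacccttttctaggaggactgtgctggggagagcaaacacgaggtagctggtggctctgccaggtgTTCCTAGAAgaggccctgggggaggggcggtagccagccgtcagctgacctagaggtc

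Female-biased liver genes moved in both directions. Of 39, 3 were shared higher (Cyp2b9, Lpl and Fmo4) and 2 lower (Cyp2c69 and Cyp4a10), at a median of 0.83. Fmo4, a flavin monooxygenase, had 2.63 to 4.82 CPM in water livers, 26.2 to 36.6 CPM in WT DEN/PB and 14.5, 8.87 and 7.21 CPM in KO DEN/PB (2.32 ± 0.44, adjusted p = 0.017, lost without KO DEN/PB replicate 1 at 0.052). Its treated libraries were all above the water livers. The list had 7 shared higher and 3 lower genes without KO DEN/PB replicate 2. Cyp4a10, a fatty acid omega-hydroxylase, fell by 3.4 ± 0.81 on the log2 scale (adjusted p = 0.035), called only without WT water replicate 1, a KO water library or KO DEN/PB replicate 2, and weakest without WT DEN/PB replicate 1 (0.11).

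Genes of the pericentral zone, many of them Wnt targets, had 6 of 30 called lower and 2 shared, Gulo and Slc1a2, a glutamate transporter, at a median of -1.58. Glul, glutamine synthetase, marks the hepatocytes around the central vein. It passed the test (-2.3 ± 0.6, adjusted p = 0.046) but was not shared: it had 907 to 1500 CPM in water livers, 119, 55.5 and 102 CPM in WT DEN/PB and 783, 932 and 780 CPM in KO DEN/PB, where replicate 2 was above a KO water liver. Slc1a2 and Glul had a called interaction (adjusted p = 0.011 and 0.0002) and were called only without a KO water library or KO DEN/PB replicate 2 (up to 0.14 and 0.16 otherwise, without WT DEN/PB replicate 1). Periportal genes had 4 of 28 shared lower, Ass1, Asl, Cps1 and Pigr (-1.02, weakest without WT DEN/PB replicate 1 at 0.094), and 1 higher, Apoa4, at a median of -0.42. With KO DEN/PB replicate 2 left out, 11 pericentral and 7 periportal genes were shared lower, and with libraries scaled by totals 1 of each. The sum of 8 general hepatocyte markers was 44100 to 51400 CPM in water livers, 75500 to 96500 CPM in WT DEN/PB and 39100 to 45500 CPM in KO DEN/PB. This sum largely follows 1 gene, Alb, at 22800 to 28900, 50500 to 62200 and 21400 to 26400 CPM in the same groups. Cps1, another of the 8, was shared lower, so the sum does not describe hepatocyte markers in general.

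**Figure D5:**
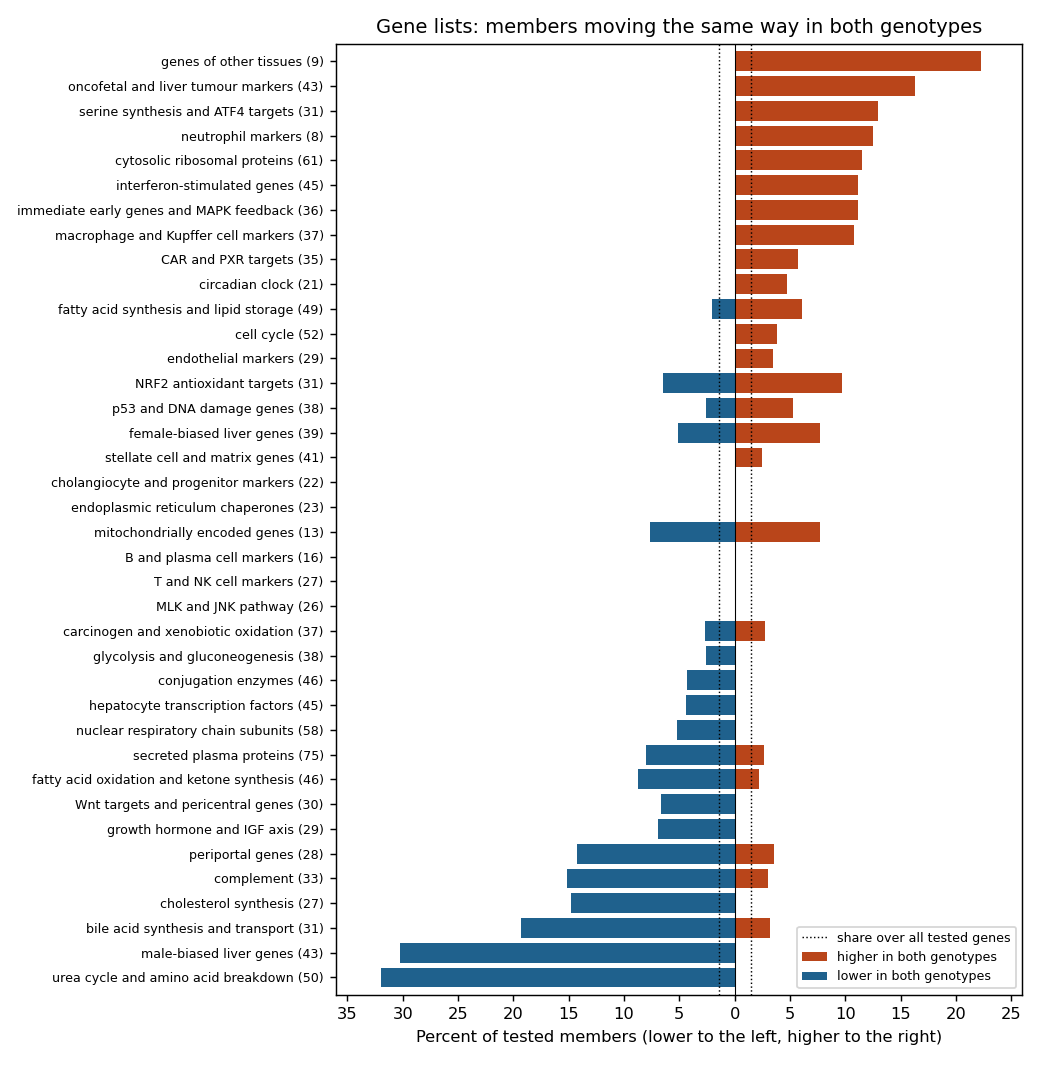
Percent of the tested members of each of 38 gene lists (number tested in brackets) that were lower (left) or higher (right) in both genotypes, with the shares over all genes tested, 1.39% and 1.49%, as dotted lines. The longest bars on the left are urea cycle and amino acid breakdown (32%) and male-biased genes (30.2%), and on the right genes of other tissues, where both members are globin genes of 9 tested, and liver tumour markers (16.3%).

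The 38 lists together covered 116 of the shared genes, and 340 lay on none of them. Shared genes were spread over the chromosomes, with 1.49% of tested genes on chromosome 5 at the low end and 3.9% on chromosome 17 at the high end of the autosomes. Runs of 3 shared genes with gaps of under 100000 bases occurred at 4 places: the Ifi27 and Psmb9 clusters, Bhmt with Bhmt2 and Dmgdh, and Hamp, the iron hormone hepcidin, with Usf2 and Fxyd1 on chromosome 7, all 3 lower and called in 2 to 4 of 10 fits. Protein-coding genes made up 188 of the 236 higher and 206 of the 220 lower genes.

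RefSeq promoter windows (250 bases before to 50 after a start) were matched by symbol for 150 of the 236 higher and 164 of the 220 lower genes, which gave 184 and 221 windows. They were searched on both strands for 11 motifs, and no difference between shares was tested. The nuclear receptor sequence AGGTCA was present in 15.2% of windows of higher genes and 21.3% of lower genes, beside 13.3% over tested genes and 16.3% over all 32851 windows. The HNF4 sequence CAAAGTCCA occurred in 0.543% and 1.81% of windows, beside 0.486% over tested genes, and the STAT5 sequence TTCNNNGAA in 8.15% and 7.69%, beside 7.1%. The sequence TTTGAA (CHR, a cell cycle element) occurred in 18.5% and 12.7%, beside 12.7%, the CCAAT box in 38% and 43%, beside 37.3%, and the NRF2 sequence TGANNNNGC in 43.5% and 42.1%, beside 42.7%. The E2F sequences TTTGGCGC or TTTCGCGC occurred in 0.543% and 0.905%, beside 1.37%, the p53 core CATG in 56% and 48.9%, beside 50%, and direct repeat 1 (the nuclear receptor sequence repeated with a spacer of 1 base, which overlaps with it) in 0% of both, beside 0.0428%. The AP-1 sequence TGANTCA occurred in 8.7% and 5.88%, beside 5.64%, and the TATA box TATAAA in 10.9% and 12.7%, beside 8.27%. The 3 sequences printed above were chosen after the matches were seen, and a match is only a run of letters in a window.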

How the data were processed

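RNA was taken from 10 male mouse samples in 4 groups of 2 or 3 and sequenced with Lexogen QuantSeq 3' FWD, a strand-specific library that reads from near the 3' end of transcripts, per the labels' protocols. The authors deposited a table of raw read counts per gene (39056 genes with positions on GRCm38), made with BWA and featureCounts on mm10, per the submitters' processing notes. The annotation, the strand setting, tool versions and the handling of reads with several matches were not given in the sources used here, so overlapping genes and near-identical copies are uncertain. No molecular identifiers are mentioned, so intervals and floors cover counting error only.

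The counts were analysed with edgeR 4.0.16 in R 4.3.3: genes were kept by filterByExpr (15811), libraries scaled by the TMM method, and the treatment term of a model with genotype tested by the quasi-likelihood F test (7 residual degrees of freedom, 2-sided). P-values were adjusted by Benjamini-Hochberg over all genes tested, at a threshold of 0.05. CPM values are TMM-scaled. The biological coefficient of variation was 77.2%. Alternatives used DESeq2 1.42.0 and limma 3.58.1. The fits were also run on simulated data that held no genotype difference and no outlying library, so that run says nothing of how they handle either. No 2 libraries agreed within counting noise (chi-square per degree of freedom 39.8 to 94.9). The labels do not say that equal replicate numbers mark a shared litter, batch or day, so the p-values measure the spread between these samples.

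Named genes were those with at least 10 CPM in an arm and a regular symbol that had the largest changes (10 in each direction), the smallest p or the highest level (5 each), up to 3 shared members of each gene list with the smallest p, and a set of standard liver markers. Genes outside this rule (in the sentences on secreted, signalling and matrix genes, neighbours, Rras, Cryz, Clock and Pdhb, Tspan8, and Bhmt) were chosen after their values were seen. The members, the rule and the lists were chosen with earlier results of these data known. A few items are not reported here.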

Additional observations from a re-analysis of the deposited data

Results flagged for a closer look

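The response to DEN/PB differed between the genotypes, by edgeR's test of the interaction, for 22 of the named genes. Values here are the KO minus the WT log2 fold change, with the adjusted p of the interaction. Among shared higher genes the response was smaller in KO for Lpl (-2.78, adjusted p = 0.018) and Trib3 (-3.05, adjusted p = 0.033).

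Among shared lower genes the fall was smaller in KO for the urinary protein genes Mup1 (7.37, adjusted p = 0.00014), Mup7 (7.95, adjusted p = 9.1e-05), Mup6 (6.48, adjusted p = 6.7e-06), Mup3 (4.87, adjusted p = 0.00026) and Mup-ps22 (4.66, adjusted p = 0.00055). The same held for the other male-biased or metabolic genes Susd4 (5.87, adjusted p = 7.9e-05), Cyp7b1 (5.51, adjusted p = 4.8e-05), Car3 (5.25, adjusted p = 0.0038), Slco1a1 (4.91, adjusted p = 0.0031), Scnn1a (4.87, adjusted p = 0.012) and Slc1a2 (4.03, adjusted p = 0.011). Secreted and receptor genes with a smaller fall in KO were C6 (3.11, adjusted p = 0.0022), C8b (1.81, adjusted p = 0.013), Mbl1 (1.86, adjusted p = 0.0056), Serpina3k (1.83, adjusted p = 0.011) and Egfr (2.29, adjusted p = 0.016), and so did Plin5 (2.27, adjusted p = 0.016).

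Glul (3.59, adjusted p = 2e-04) and Hsd3b5 (5.86, adjusted p = 0.0012) were called lower without being shared. Alb differed too (-1.43, adjusted p = 0.027), at 1.21 in WT and -0.22 in KO, with no called treatment term. All groups had 2 or 3 libraries, too few for a test of single libraries within a group.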

How the results depend on the processing

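The counts of genes called higher, called lower, shared higher and shared lower (371, 288, 236 and 220) depended on the model. They were 1011, 738, 468 and 413 with DESeq2, 572, 115, 392 and 88 with libraries scaled by totals only, 806, 650, 335 and 292 with no filter on low counts, and 769, 684, 353 and 344 with 1 term per group. They fell to 216, 42, 144 and 42 without the genotype covariate and 84, 7, 56 and 7 when tested against a fold of 1.5. With 10 CPM as minimum, size factors of the RLE type, limma voom or the Mup genes removed, all 4 counts stayed within 1.5 times. WT libraries alone called 676 higher and 638 lower, and KO libraries alone 4 and 0. Calls by 1 genotype give no shared count.

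With the replicate number as a block the counts were 72, 12, 56 and 12. Over 13 pairs of samples with equal numbers, the correlation of their deviations from the group means was -0.0093 to 0.041. This was taken over all genes, and in groups of 2 libraries the deviations mirror each other. It therefore cannot exclude a pairing that acts on some genes.

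Leaving out single libraries gave 97 to 592 called higher, 31 to 544 called lower, 78 to 552 shared higher and 31 to 514 shared lower, with the lowest counts without KO DEN/PB replicate 1 or WT DEN/PB replicate 3 and the highest without KO DEN/PB replicate 2. The interaction called 654 genes with DESeq2 in place of 251, and 171 to 287 with a library left out. The share of WT calls with the same sign in KO (83.5%) was 81% at an unadjusted p under 0.01 and 77.2% to 87.3% with a library left out. The share of KO genes with the same sign in WT (84%) was 90.6% at 10 CPM and 80% to 84.5% with a library left out. No named gene changed direction past the threshold under any of these settings, which for the shared genes was largely fixed by how they were selected. Counts under 0.156 to 0.231 CPM could not be told from 0.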
